A study of Mus musculus with 4 samples.

Results

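Phase II conjugation enzymes attach a polar group to drugs, dietary chemicals, hormones and bile pigments so that these can be excreted. Their transcripts were followed in intestinal tumours of ApcMin/+ mice, by taking every probe of the scanner table whose gene symbol begins with Ugt1, Ugt2, Ugt3, Sult, Gsta, Gstm, Gstp, Gstt, Gsto, Gstk, Gstz or Mgst. This gave 90 of 45281 probes, for 56 of 30869 gene symbols: 35 probes for 21 UDP-glucuronosyltransferase (UGT) genes, 16 probes for 11 sulfotransferase genes, and 39 probes for 24 glutathione transferase (GST) and microsomal GST genes. The Min allele shortens the Apc protein, which restrains Wnt signalling, and heterozygous animals form many intestinal adenomas. The samples were large tumours (4 to 5 mm across) and small tumours (at most 2 mm) from the small intestine of 2 animals, both ApcMin/+ on the C57BL/6J strain and 30 weeks old. Each mouse gave 1 pool of 3 large and 1 pool of 3 small tumours, and each pool was read on 1 Illumina bead array. Normal mucosa and mice without the Apc mutation were not analysed here, and the labels do not say where along the intestine the tumours lay.

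UGTs transfer glucuronic acid from UDP-glucuronic acid and sit in the endoplasmic reticulum. Sulfotransferases transfer sulfate from the donor PAPS in the cytosol. GSTs join glutathione to electrophiles, and the microsomal GSTs are membrane proteins of a separate fold that do related chemistry. Absorptive enterocytes of the small intestine are rich in enzymes of all these kinds, which handle ingested chemicals before these reach the liver.

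Between 18969 and 19990 probes were detected per array (detection p under 0.05), and the median signal was 59.1 to 63.0. Values below are log2 intensities after background correction and quantile normalization unless said otherwise, and a difference is large minus small. The 20214 probes detected on at least 2 of 4 arrays were tested, and each of the 13898 genes is represented by its brightest tested probe. In limma fitted without a mouse block, no probe passed (smallest adjusted p = 0.0918, with 1563 probes at an unadjusted p under 0.05), and 120 passed with the mouse as a block. The small pool of mouse 2 was the least like the rest: its Pearson correlations across genes, which are no independent replicates, were 0.940 to 0.952, and those between the remaining arrays 0.963 to 0.978. With 2 arrays a size, the smallest p that exact permutation allows is 0.333. Villin (Vil1) and the goblet cell mucin Muc2 were detected on all 4 arrays. Fabp6, a bile acid binder of ileal cells, separated the animals: it was at 12.95 in the large and 13.65 in the small pool of mouse 1, and at 7.76 in the large and 4.99 in the small pool of mouse 2.

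Of the 90 member probes, 58 passed the filter on dim probes, 50 of them detected on all 4 arrays, and 27 were detected on none. They stand for 36 of the 56 genes. The 20 genes not tested were Ugt1a5, Ugt1a6b, Ugt1a9, Ugt1a12, Ugt2a1, Ugt2a2, Ugt2b1, Ugt2b5, Ugt2b37, Ugt2b38, Ugt3a1, Ugt3a2, Sult1b1, Sult1c1, Sult1e1, Sult2a1, Sult3a1, Sult5a1, Gstm3 and Gstt4. They include the oestrogen sulfotransferase gene Sult1e1 and the steroid and bile acid sulfotransferase gene Sult2a1. Genes are counted by the symbols of the array. Ugt1a12 is an older name of Ugt1a9, so the 56 symbols stand for 55 current ones. Read from its brightest probe, no gene of the set passed limma with or without the mouse as a block. Of the 58 member probes, 1 passed with the block. Among all genes, 0% were called without the block and 0.684% with it. At an unadjusted p under 0.05, the set had 3 of 36 genes without the block (Gsto2 among them), against 7.23% of all genes, and 7 of 36 with it, against 10.6% of all genes. The families are read apart below, and over the whole set the shares by direction were near those of all genes. Of the 36 genes, 9 were lower and 10 higher in large tumours of both mice, against 26.7% and 30.7% of all genes. Another 17 went opposite ways in the mice, against 42.5%. Of these, 14 were lower in mouse 1 and higher in mouse 2, against 19.9%, and 3 the reverse, against 22.6%. By at least 0.5 in each mouse, 3 were lower (Ugt1a1, Ugt1a7c and Ugt1a10) and 1 higher (Gsto2) in both, against 4.14% and 4.91%; Ugt1a1 and Gsto2 are counted by normalized values, some of their pools not being detected, and the direction of Gsto2 was fixed by the filter.

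**Figure D1:**
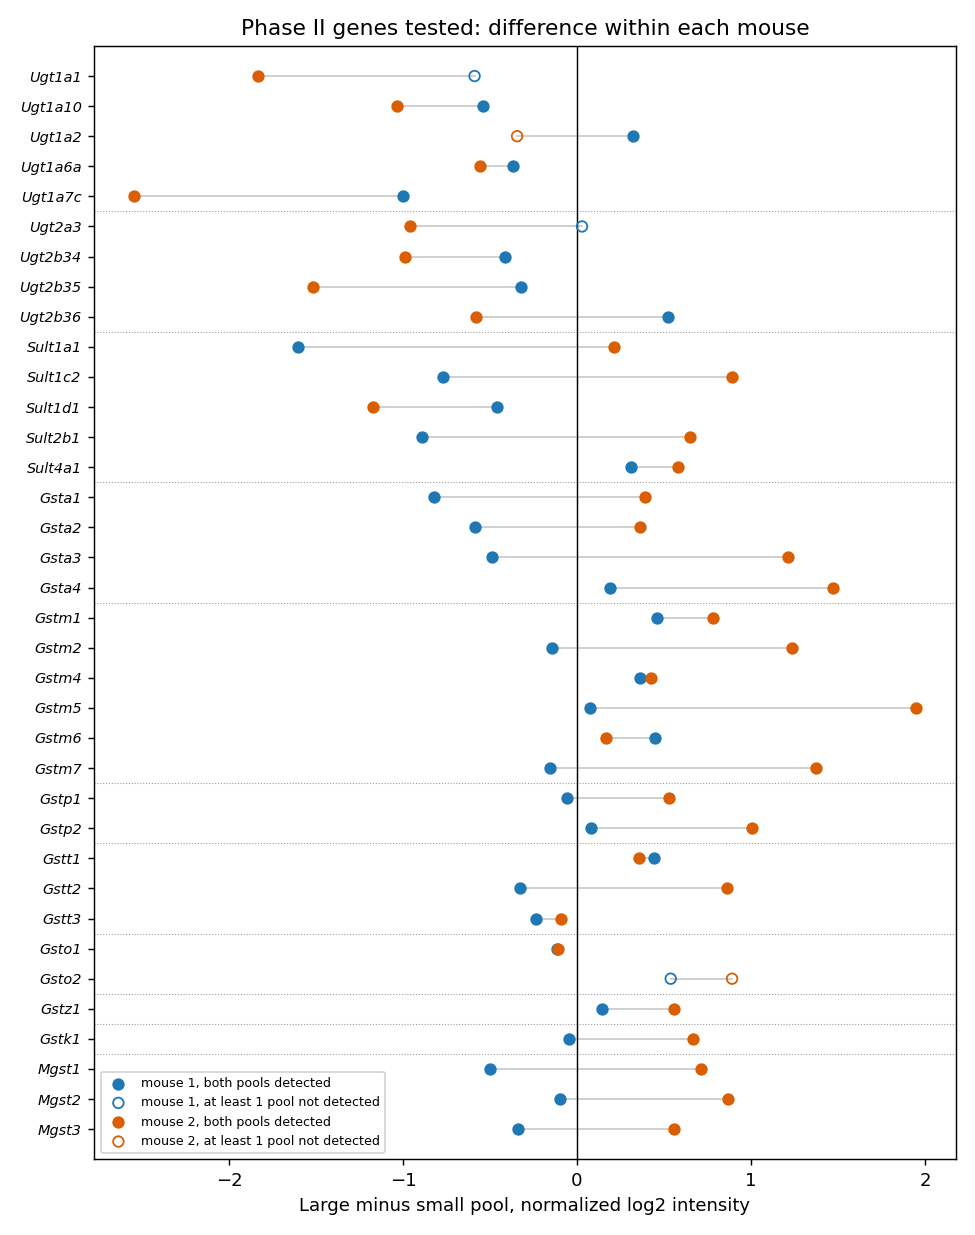
Difference between the large and the small pool of each mouse (normalized log2 intensity) for the 36 tested genes, ordered by family. Filled points mark pairs in which both pools were detected and open points pairs in which at least 1 was not; the 9 Ugt genes lie left of 0 in mouse 2, and 20 of the 22 Gst and Mgst genes lie right of 0 there.

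Most tested UGT genes had lower levels in large than in small tumours, although no gene passed the test. Of the 9 tested, 6 were lower and 0 were higher in both mice, against 26.7% and 30.7% of all genes. The 6 are not independent: 4 of them are Ugt1a genes, which share later exons, and a probe named for 1 may read several. All 9 were lower in mouse 2, against 49.3% of all genes, and there the range was -2.55 to -0.34 (the last, Ugt1a2, with neither pool of that mouse detected). The median difference was -0.37 in mouse 1 and -0.99 in mouse 2, against 0.03 and 0.01 over all genes. Counted probe by probe, 11 of 14 tested UGT probes were lower and 0 higher in both mice, against 28.6% and 29% of all tested probes. These probes are not independent: several are named for the same Ugt1a gene or for genes of that cluster, and 1 of the 11, for Ugt1a6a, passed the filter through the small pools alone, which fixed its direction. The members Ugt1a2 and Ugt2a3 entered the test through the detected pools of a single mouse, and their other mouse had no detected pool.

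Ugt1a7c, a member of the Ugt1a cluster, had the greatest difference of the set in mouse 2. Its brighter probe was at 7.11 and 7.36 in the large pools of mouse 1 and mouse 2, against 8.11 and 9.91 in the small pools. Both large pools lay below both small pools. On the scale of the raw signal, this was 173 ± 7.69 and 197 ± 9.19 in the large pools, against 294 ± 13.9 and 1118 ± 48.2 in the small pools (standard error over beads). The differences exceed the bead error, which covers each array alone and not the animals. The log2 values differed by -0.9997 in mouse 1, by -2.55 in mouse 2, and by -1.77 ± 0.56 over both (SE of limma, n = 2 pools each; adjusted p = 0.588 unblocked and 0.0659 blocked by mouse). A second, dimmer Ugt1a7c probe was at 5.14 and 6.17 in the large pools, against 6.44 and 8.28 in the small pools. Here too the large pools lay below the small ones. Its difference of -1.70 passed limma with the mouse block (adjusted p = 0.0478) and not without it (adjusted p = 0.605). It was the only one of the 58 member probes to pass, against 0.594% of all tested probes.

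Ugt1a1, the enzyme that conjugates bilirubin, was at 4.45 and 5.44 in the large pools, against 5.04 and 7.27 in the small pools. The small pool of mouse 2 was high and the groups overlapped; the large pool of mouse 1 was not detected, so its difference in mouse 1 is a bound of -0.26, and that in mouse 2 was -1.83 (limma adjusted p = 0.691 unblocked and 0.204 blocked). The array has 6 probes named Ugt1a10, of which 3 were detected on all arrays and 3 on none. The brightest was at 10.94 and 11.82 in the large pools, against 11.48 and 12.85 in the small pools. Its level was lower in the large pool of each mouse (-0.54 and -1.04), yet the large pool of mouse 2 lay above the small pool of mouse 1. The other detected Ugt1a10 probes differed by -0.42 and -0.90, and by -0.60 and -1.53. Ugt1a6a, a phenol-conjugating member, differed by -0.37 and -0.56, and Ugt1a2 by 0.32 in mouse 1. A second Ugt1a6a probe, detected in small pools alone, gave bounds of -0.23 and -0.36.

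The Ugt1a genes overlap in the genome: each has its own first exon and promoter, and they share the later exons. In the RefSeq annotation of GRCm38.p6, 7 of 9 Ugt1a genes have the same end, and Ugt1a10 is also listed as an older name of Ugt1a7c. The files hold no probe sequences, so a probe named for 1 Ugt1a gene may read several. The 250 bases before the annotated start are shown for the Ugt1a genes whose normalized values differed by at least 0.5 in both mice, because each first exon has a start of its own (RefSeq, GRCm38.p6). Capitals mark GTTAAT followed by any base and ATT, part of the binding motif of the hepatic and intestinal factor HNF1, on either strand.
Ugt1a10 (chr1:88055161-88055410, plus strand): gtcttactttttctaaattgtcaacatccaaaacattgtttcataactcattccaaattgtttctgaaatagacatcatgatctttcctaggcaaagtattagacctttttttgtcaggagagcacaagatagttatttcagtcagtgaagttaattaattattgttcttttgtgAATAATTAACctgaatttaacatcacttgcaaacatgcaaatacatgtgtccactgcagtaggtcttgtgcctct
Ugt1a7c (chr1:88094751-88095000, plus strand): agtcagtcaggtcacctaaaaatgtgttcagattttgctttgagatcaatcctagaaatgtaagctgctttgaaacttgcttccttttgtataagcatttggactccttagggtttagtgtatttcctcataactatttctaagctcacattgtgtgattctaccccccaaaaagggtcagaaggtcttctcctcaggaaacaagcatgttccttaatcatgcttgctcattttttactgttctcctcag
Ugt1a1 (chr1:88211709-88211958, plus strand): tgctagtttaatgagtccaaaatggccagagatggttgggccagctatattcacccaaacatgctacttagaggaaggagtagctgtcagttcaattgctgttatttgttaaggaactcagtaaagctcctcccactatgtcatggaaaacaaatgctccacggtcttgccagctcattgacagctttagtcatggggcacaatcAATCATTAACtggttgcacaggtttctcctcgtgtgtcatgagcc
This motif was found in 3 of 7 Ugt1a promoters in the table (Ugt1a1, Ugt1a9 and Ugt1a10), in 4 of 60 promoters of the whole set (with Sult1d1), and in 0.371% of all 32851 promoters of the same length. It contains the shorter GTTAAT, which 4 of 7 Ugt1a promoters and 6.43% of all promoters hold. Ugt1a7c had neither. It was 1 of 7 motifs searched, and a match is a description of letters, not a bound site.

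Among the Ugt2 genes, which conjugate steroids and other lipophilic compounds, Ugt2b34 was at 6.63 and 7.19 in the large pools, against 7.05 and 8.17 in the small pools. The difference was -0.42 and -0.99, and the groups overlapped. Ugt2b35 was at 6.06 and 5.82 in the large pools, against 6.38 and 7.34 in the small pools. Its large pools lay below its small pools (-0.32 and -1.52; limma adjusted p = 0.643 unblocked and 0.363 blocked). Ugt2b36 gave 0.53 in mouse 1 and -0.58 in mouse 2 with 1 probe, and -0.23 and -1.18 with another. Ugt2a3 was not detected in either pool of mouse 1 and differed by -0.96 in mouse 2. The Ugt3 genes were not tested.

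The size of the UGT difference depended on the small pool of mouse 2. The median over the 9 genes was -0.70 in the fit of all arrays, -0.10 without that pool and -1.40 without the small pool of mouse 1. In small pools UGT genes lay 1.38 higher in mouse 2 than in mouse 1 (median), and 0.67 higher in large pools; 7 of 9 were higher in mouse 2 in both sizes, against 27.3% of all genes. Markers of absorptive enterocytes had the same sign: 11 of 12 tested were lower in large tumours of both mice (median -1.22 and -1.34), against 26.7% of all genes. Their summed linear intensity was 26112 and 49485 in the large pools, against 41582 and 79735 in the small pools. The part of enterocyte content in the UGT values was not tested, and in pooled tissue fewer cells of a type and less RNA per cell cannot be told apart. The brush border genes Alpi (-1.47 and -1.62), Treh (-1.47 and -1.72) and Anpep (-1.37 and -1.42) are examples. Their limma adjusted p was 0.588 to 0.710 unblocked and 0.0510 to 0.0883 blocked, and none of the 12 passed either way.

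**Figure D2:**
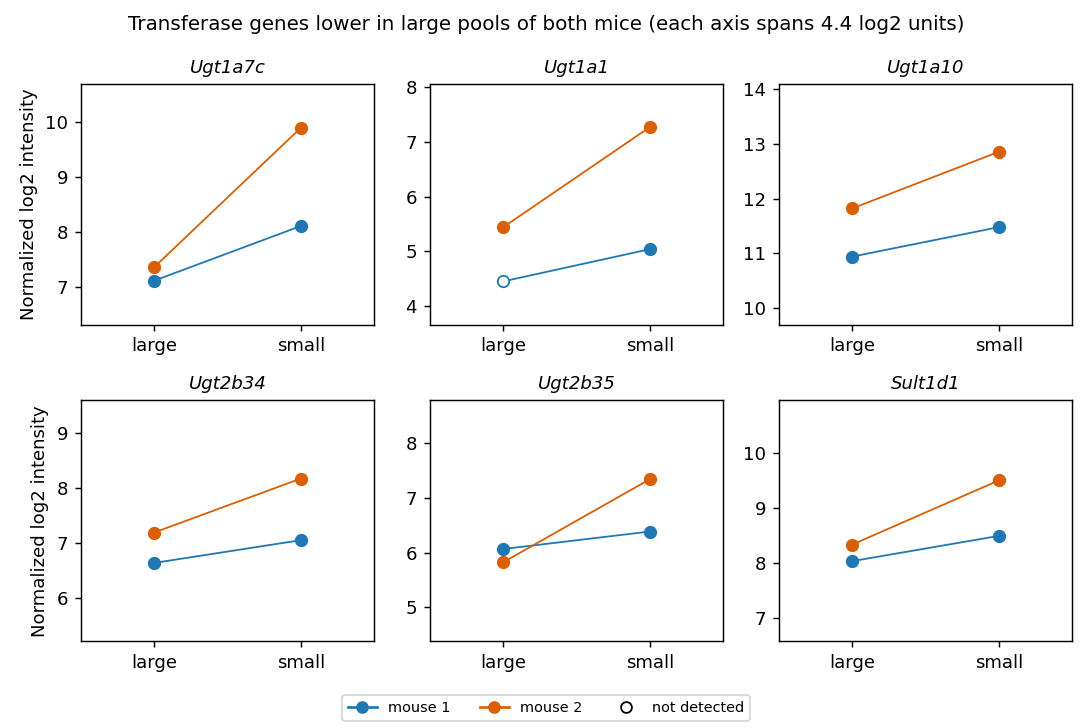
Normalized log2 intensity of 6 transferase genes in the large and the small pool of mouse 1 and mouse 2, 1 point per array, lines joining pools of the same animal and open points marking pools not detected. The genes were picked among those lower in the large pools of both mice, so the choice fixed the direction of the lines. In each panel both lines climb towards the small pool, more steeply in mouse 2 than in mouse 1.

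The sulfotransferase genes did not share a direction. Of 5 tested, 1 was lower and 1 higher in both mice, against 26.7% and 30.7% of all genes. The other 3 were lower in mouse 1 and higher in mouse 2, against 19.9% of all genes. Sult1d1, which sulfates catecholamines in the mouse, was at 8.03 and 8.33 in the large pools, against 8.49 and 9.51 in the small pools. Its large pools lay below its small pools (-0.46 and -1.17; limma adjusted p = 0.666 unblocked and 0.401 blocked), while a dim second probe gave a bound of 0.24 in mouse 1 and 0.01 in mouse 2. Sult1a1, the phenol sulfotransferase gene, was at 5.78 and 6.16 in the large pools, against 7.39 and 5.95 in the small pools. The small pool of mouse 1 was the high one, and the difference was -1.61 in mouse 1 and 0.21 in mouse 2. Sult2b1, which sulfates cholesterol, was at 9.59 and 10.08 in the large pools, against 10.49 and 9.43 in the small pools. The mice went opposite ways (-0.89 and 0.65), as with a second probe (-0.73 and 0.51), whereas the dimmest of its 3 probes was lower in both (-1.05 and -0.26). Sult1c2 differed by -0.77 and 0.89. Sult4a1, known from brain, differed by 0.31 and 0.58.

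Most GST genes had higher levels in the large than in the small pool of mouse 2, and none passed the test. Of 22 tested GST and microsomal GST genes, 20 were higher in the large pool of mouse 2, against 50.7% of all genes, and 9 in that of mouse 1, against 53.3%. The median difference was -0.08 in mouse 1 and 0.69 in mouse 2. In both mice 9 were higher and 2 lower, against 30.7% and 26.7% of all genes. The other 11 went opposite ways, a share near the 42.5% of all genes, and each of them was lower in mouse 1 and higher in mouse 2, against 19.9%. The median over both mice was 0.36 with all arrays, 0.21 without the small pool of mouse 2, 0.09 without the large pool of mouse 2 and 0.67 without the large pool of mouse 1. Their limma adjusted p was 0.632 to 0.975 unblocked and 0.382 to 0.954 blocked.

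The alpha class holds the abundant enterocyte and hepatocyte GSTs. Gsta1 was at 10.18 and 12.02 in the large pools, against 10.999 and 11.63 in the small pools. Mouse 2 was high in both sizes, and the difference was -0.82 in mouse 1 and 0.39 in mouse 2; the other Gsta1 probes gave -0.57 and 0.40, and -0.77 and 0.20. Gsta2, a close paralog of Gsta1, differed by -0.58 and 0.36, and reads of the pair may be shared. Gsta3, which in mice detoxifies the epoxide of aflatoxin, was at 10.10 and 11.12 in the large pools, against 10.59 and 9.91 in the small pools. Large and small pools differed by -0.49 and 1.22, and by 0.05 and 0.45 on a dim second probe. Gsta4, which clears the lipid peroxidation product 4-hydroxynonenal, was at 9.80 and 10.41 in the large pools, against 9.61 and 8.94 in the small pools. The large pools lay above the small ones, by 0.19 and 1.47 (over both mice 0.83 ± 0.37, SE of limma; adjusted p = 0.655 unblocked and 0.436 blocked).

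In the mu class, 6 of 6 tested genes were higher in the large pool of mouse 2 and 4 of 6 in that of mouse 1. Gstm5 was at 10.82 and 11.12 in the large pools, against 10.75 and 9.17 in the small pools. The small pool of mouse 2 was low and the other pools lay close together, which gave differences of 0.07 and 1.95. Over both mice Gstm5 differed by 1.01 ± 0.51 (SE of limma; adjusted p = 0.673 unblocked and 0.382 blocked), and by 0.22 without the small pool of mouse 2. Gstm7 was at 6.88 and 7.68 in the large pools, against 7.04 and 6.31 in the small pools. It too was lowest in the small pool of mouse 2 (-0.15 and 1.37), as was Gstm2 on its 3 probes (differences of -0.23 to -0.15 in mouse 1 and 0.81 to 1.23 in mouse 2). Gstm1 differed by 0.46 and 0.78, Gstm4 by 0.36 and 0.42, and Gstm6 by 0.45 and 0.16. Gstm1 had a dim second probe at 0.06 and -0.08, and Gstm6 had others at 0.54 and 0.53 and at -0.18 and -0.10.

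GST genes are textbook targets of the oxidant-sensing factor NRF2 (gene Nfe2l2), which binds antioxidant response elements. Nfe2l2 itself was at 7.56 and 7.21 in the large pools, against 7.80 and 8.81 in the small pools. It differed by -0.24 in mouse 1 and -1.60 in mouse 2 (limma adjusted p = 0.651 unblocked and 0.380 blocked). Its part in the GST values was not tested. The core TGACNNNGC was found, on either strand, in the 250 bases before the start of 4 of 60 promoters of the set (Gsta3, Gstm5, Gstm7 and Mgst1), against 10.2% of all promoters. It is shown in capitals for Gsta3 and Gstm5 as examples (RefSeq, GRCm38.p6), which differed by 1.22 and 1.95 in mouse 2. Gstm7, not shown, differed by 1.37 there. Gsta4 (1.47) and Gstm2 (1.23), not among the 4, also differed more than Gsta3. No AP-1 motif TGACTCA lay over the matches shown.
Gsta3 (chr1:21240335-21240584, plus strand): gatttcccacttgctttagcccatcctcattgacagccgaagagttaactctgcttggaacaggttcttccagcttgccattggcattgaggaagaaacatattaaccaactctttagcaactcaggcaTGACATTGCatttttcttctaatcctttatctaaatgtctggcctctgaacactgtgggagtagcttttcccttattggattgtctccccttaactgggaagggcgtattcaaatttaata
Gstm5 (chr3:107895604-107895853, plus strand): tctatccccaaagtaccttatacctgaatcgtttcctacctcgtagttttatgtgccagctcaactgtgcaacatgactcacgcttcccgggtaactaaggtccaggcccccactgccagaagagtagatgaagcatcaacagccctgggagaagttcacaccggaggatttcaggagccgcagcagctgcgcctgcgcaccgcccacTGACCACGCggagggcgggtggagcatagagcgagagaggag
The promoter table matched 49 of 55 current symbols.

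**Figure D3:**
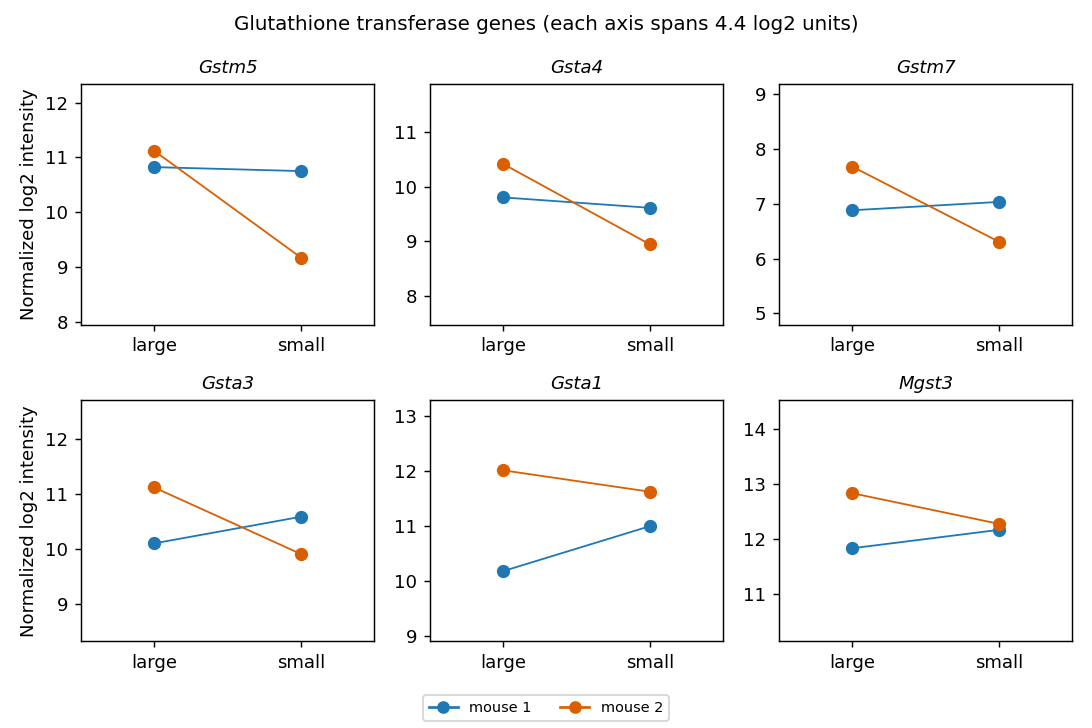
Normalized log2 intensity of 6 glutathione transferase genes in the large and the small pool of mouse 1 and mouse 2, 1 point per array, lines joining pools of the same animal. Gstm5, Gsta4, Gstm7 and Gsta3 are lowest in the small pool of mouse 2, while Gsta1 is high in both pools of mouse 2.

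Gstp1, of the pi class, was at 12.20 and 12.25 in the large pools, against 12.26 and 11.73 in the small pools. The difference was -0.06 and 0.53, its other bright probe gave -0.29 and 1.01, and its dim one gave 0.36 and a bound of 0.87. Gstp2, the neighbouring pi class gene, differed by 0.08 and 1.01. Of the theta class, Gstt1 differed by 0.44 and 0.36, Gstt2 by -0.33 and 0.86 (a dim probe 0.24 and a bound of -0.46), and Gstt3 by -0.24 and -0.09. Gsto1, which also reduces dehydroascorbate, was among the least different, at 12.69 and 12.91 in the large pools, against 12.80 and 13.02 in the small pools. The differences of -0.11 in both mice were smaller than the gap between the animals. The tested Gsto2 probe was at 5.00 and 5.20 in the large pools and was not detected in the small pools, which gave bounds of 0.20 and 0.37. It passed the filter through the large pools alone, so the filter fixed its direction, and its place in the counts of higher and non-overlapping genes supports nothing. A second Gsto2 probe, too dim to be tested, was detected in the small pool of mouse 1 alone and had the opposite sign there (a bound of -0.075). Gstz1, an isomerase of tyrosine breakdown, differed by 0.14 and 0.56. Gstk1, the mitochondrial and peroxisomal kappa class gene, differed by -0.04 and 0.67, and by -0.02 and 0.95 on its second probe.

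The 3 microsomal genes were all lower in the large pool of mouse 1 and higher in that of mouse 2. Mgst1 was at 10.84 and 11.74 in the large pools, against 11.34 and 11.03 in the small pools (-0.50 and 0.71). Mgst3 was at 11.83 and 12.83 in the large pools, against 12.16 and 12.27 in the small pools (-0.34 and 0.56). Mgst2, which can make leukotriene C4, differed by -0.10 and 0.87. For both Mgst1 and Mgst3 the pool that stood out upwards was the large pool of mouse 2, and their second probes had the same signs.

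**Figure D4:**
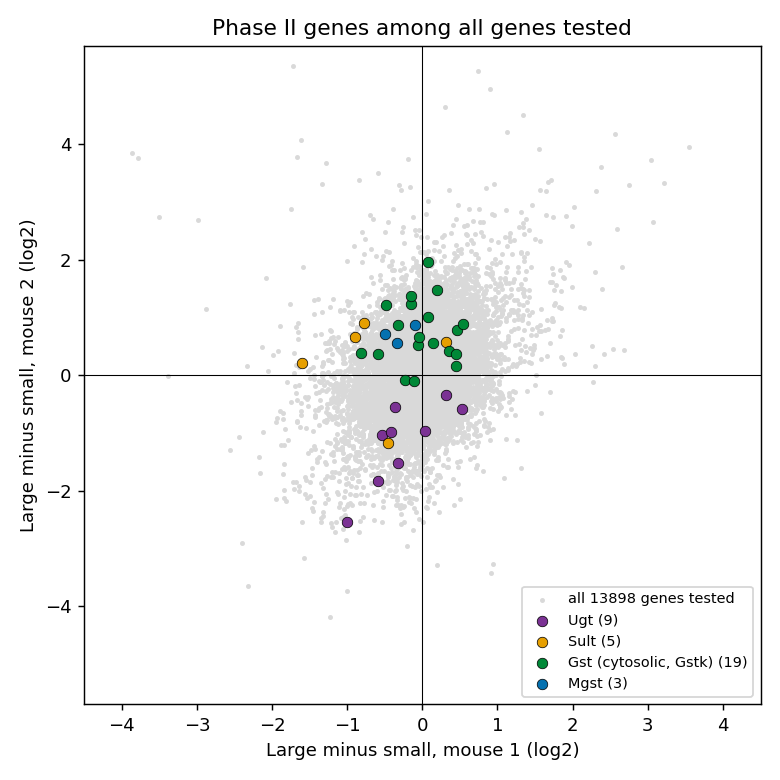
Large minus small difference (log2) in mouse 1 on the horizontal and in mouse 2 on the vertical axis for all 13898 genes tested (grey) and the 36 phase II genes by family. The 9 Ugt genes lie below 0 on the vertical axis, and 20 of the 22 Gst and Mgst genes lie above it.

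Groups that did not overlap were no more frequent in the set than among all genes. Both large pools lay below both small pools for 3 of 36 genes (Sult1d1, Ugt1a7c and Ugt2b35), against 17.5% of all genes. They lay above them for 6 of 36 (Gsta4, Gstm1, Gstm5, Gsto2, Gstp2 and Gstz1), against 22.2%, with Gsto2 placed there by the filter. With each gene read from its brightest probe, 0 of 36 differed 2-fold or more in both animals the same way, against 1.74% of all genes; that probe of Ugt1a7c was just short of it in mouse 1. Its second probe met it in both mice (-1.29 and -2.11), the only one of 58 member probes to do so, against 1.61% of all tested probes.

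Genes that supply the cofactors, 11 of 15 tested, were lower in both mice for 5 and higher for 1, against 26.7% and 30.7% of all genes. Slc7a11, the cystine carrier that feeds glutathione synthesis, was at 6.20 and 6.11 in the large pools, against 7.36 and 6.84 in the small pools. The large pools lay below the small ones (-1.16 and -0.73). Ggt1, which breaks down extracellular glutathione, differed by -0.95 and -0.46, and Slc35b2, a PAPS carrier of the Golgi, by 0.34 and 0.44. Of 18 other conjugating and related enzymes, 6 were higher and 5 lower in both mice, against 30.7% and 26.7% of all genes. Ugt8a, the ceramide galactosyltransferase of myelin synthesis, was at 6.71 and 6.23 in the large pools, against 5.48 and 4.93 in the small pools. Its differences of 1.22 and 1.30 run against those of the Ugt1 and Ugt2 genes. Nnmt, a nicotinamide methyltransferase, differed by 0.74 and 1.06, and the quinone reductase gene Nqo1 by -0.73 and -0.78.

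Of 6 tested genes that carry conjugates or organic anions across membranes, 3 were higher and 3 lower in both mice. Over all genes these shares were 30.7% and 26.7%. Abcc2, which pumps glucuronides into the gut lumen, differed by -0.44 and -1.40, the uptake carrier gene Slco2b1 by -0.47 and -0.48, and Abcc5 by 0.19 and 0.77. Of 4 deconjugation genes, the carboxylesterase gene Ces2e differed by -0.79 and -1.04 and the arylsulfatase gene Arsb by 0.69 and 0.29. Of 16 regulators, 7 were lower and 2 higher in both mice, against 26.7% and 30.7% of all genes. Nr1i2, which encodes the xenobiotic receptor PXR, was at 7.46 and 7.91 in the large pools, against 8.41 and 8.61 in the small pools. Its large pools lay below its small ones (-0.95 and -0.70). Hnf4a, a factor of enterocyte and hepatocyte genes, differed by -0.29 and -1.10, and Gata4 by a bound of 0.22 and by 0.62. Of 17 NRF2 targets outside the set, 7 were lower and 5 higher in both mice, against 26.7% and 30.7% of all genes. They include Blvrb, a biliverdin reductase gene (0.85 and 1.47), and Nqo1 and Slc7a11 as above. None of the genes of these 6 lists passed limma, without or with the mouse block.

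Markers of other cell types were read in the same way. Their counts stand beside 26.7% of all genes lower and 30.7% higher in large tumours of both mice. Of 8 fibroblast and matrix markers, 7 were higher and 0 lower in both mice, and their summed linear intensity was 11912 and 5599 in the large pools, against 7526 and 3203 in the small pools. Mgp (1.70 and 1.62) and Lum (1.72 and 1.61) passed limma with the mouse block (adjusted p = 0.0439 for each) and not without it (0.680 and 0.684). Of 6 stem and progenitor markers, 3 were higher and 1 lower in both mice (Smoc2 a bound of 1.18 and 1.12, Ascl2 1.00 and 0.75, Lgr5 2.03 and 0.37). The lower one was Olfm4 (-0.36 and -1.60), and the proliferation gene Mki67 differed by 0.28 and -0.88. Their sum was 4394 and 2987 in the large pools, against 3492 and 4785 in the small pools. Of 6 goblet markers, 2 were higher and 2 lower in both mice (Spdef 0.69 and 1.04, Fcgbp -0.67 and -0.76, Agr2 0.59 and a bound of 1.64). Of 5 proximal markers 2 were lower and 2 higher in both mice. Ada (-2.32 and -3.66) passed limma with the block at an adjusted p of 0.00389. The higher ones were dim and not detected in the small pool of mouse 1 (Gata4 a bound of 0.22 and 0.62, Pdx1 a bound of 0.081 and 1.58). Of 5 distal markers 2 were lower and 1 higher in both mice (Muc3 -1.03 and -1.13, Mep1a -1.28 and -0.81, Osr2 0.14 and 0.61). The distal markers summed to 16762 and 5172 in the large pools, against 26523 and 4554 in the small pools. Of 4 smooth muscle markers 2 were higher and 0 lower in both mice (Tagln 0.66 and 0.87, Acta2 0.16 and 0.69), and of 3 endothelial markers 2 were higher and 0 lower (Cdh5 0.68 and 1.49, Tek 0.55 and 1.61). Of 5 leukocyte markers 3 were lower in both mice, namely the T cell gene Cd3e (-1.18 and -1.34), the macrophage gene Csf1r (-0.61 and -0.68) and the pan-leukocyte gene Ptprc. The neutrophil gene S100a8 alone was higher in both (1.72 and 3.38; limma adjusted p = 0.0206 blocked and 0.569 unblocked), and the median of the list was -0.54. Of 5 hepatocyte markers the albumin gene Alb, Apoh, Fgb and Serpina1a were not among the probes tested, and Ttr was, at 10.50 and 10.05 in the large pools, against 8.59 and 7.30 in the small pools (limma adjusted p = 0.0147 blocked and 0.569 unblocked). Of 5 pancreatic markers Cela1 alone was tested (0.80 and 2.41). The part of these cell types and of intestinal position in the phase II values was not tested.

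**Figure D5:**
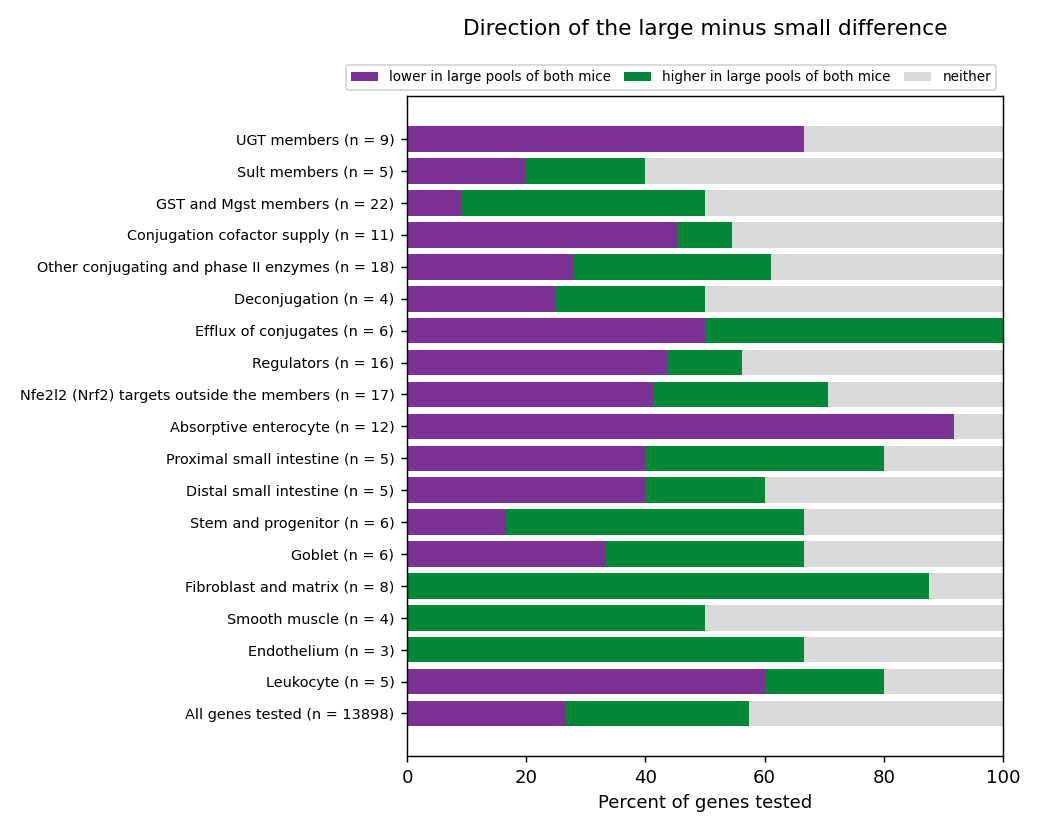
Percent of tested genes that were lower (purple) or higher (green) in the large pools of both mice, or neither (grey), for the UGT, sulfotransferase and GST genes, for the pathway lists and for cell type markers, with all 13898 genes at the bottom. The UGT bar (6 of 9 lower) and the enterocyte bar (11 of 12 lower) stand beside 26.7% of all genes. Of the 6 UGT genes, 4 are Ugt1a genes, which share exons and are not independent.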

How the data were processed

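Total RNA of 4 tumour pools was labelled with biotin and read on Illumina bead arrays. The authors exported linear signal intensity, neither normalized nor background-corrected, per the file headers (module version 3.2.6; BeadStudio, per the submitters' processing notes). The deposited table also gave a standard error over beads, counts of beads per probe and a detection p-value against negative controls. The authors' deposited matrix of normalized intensity (15274 probes, 49 of the set; method not given in the sources used here) was an alternative. The series value table and an example sheet were not used.

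R 4.3.3 and limma 3.58.1 (function neqc) corrected and normalized the signals (normexp from the detection p-values, offset 16, quantile, log2). Probes detected on at least 2 arrays were fitted with lmFit and eBayes (two-sided, Benjamini-Hochberg, 0.05) without the mouse as a block, and with it as an alternative; the script was tested on simulated data. The pairing comes from the labels, which give each mouse 1 pool of each size; mouse 2 minus mouse 1 in one size correlated with the same in the other (r = 0.250 across genes). The 2 mice are the replicates. Where a pool was not detected, a difference is a bound, taken from the higher of the probe's value and the lowest detected log2 value of that array; counts and medians used the normalized values. Gene symbols come from the array file. RefSeq lists 89 member probes under a current name and 1 under an older one (Ugt1a12, now Ugt1a9). The precision is limited by the number of arrays.

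Members, lists and tests were chosen with earlier results of these data known. Genes named were members at least 0.5 apart the same way in each mouse, the brightest of each family, members past the threshold in any fit, members at least 1 apart in opposite directions (none), and for each list up to 3 genes by the smaller within-mouse difference; the other tested members are given as a full account of the set, and those shown array by array, such as Gstm5 and Gsta4, were chosen after their values were seen. Of the 7 promoter motifs, TGACNNNGC was chosen first and the other 6 after the differences were known. Some list genes, such as Nfe2l2 and Olfm4, were named beyond the 3 of their list.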

Additional observations from a re-analysis of the deposited data

How the results depend on the processing

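Without the mouse block no gene of the set passed limma under any alternative. Over all tested probes, 0 passed as reported, 2 with median scaling and 0 to 70 with 1 array left out; a size left with a single pool takes its spread from the other size. The fit with the replicate block passed 120, and with the replicate block plus another choice, added after seeing the data, 457 passed with median scaling, 322 with the filter at 4 of 4 arrays and 36 with the authors' values. In these fits 2 genes of the set passed with median scaling (Ugt1a7c, adjusted p = 0.000706, and Ugt1a1, adjusted p = 0.0382) and 1 with that filter (Ugt1a7c, adjusted p = 0.00451); over all blocked alternatives the limma adjusted p of Ugt1a7c was at most 0.703 and that of Ugt1a1 at most 0.719.

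The UGT genes lower in both mice numbered 6, and 5 to 6 under the other background, scaling, 4-array filter and authors' settings; counting every probe gave 11 UGT probes and 16 probes of the whole set, against 9 genes as reported. The UGT median of -0.70 was -0.74 to -0.57 under these settings, -0.020 with no filter (dim probes enter), and -1.40 to -0.10 with 1 array left out. The GST and Mgst genes lower in both mice numbered 2, and 1 with median scaling. Ranges with 1 array left out were taken for members at least 0.5 apart the same way in each mouse and the brightest of each family. Among these the sign turned for Sult2b1 (-0.65 to 0.41), Gsta1 (-1.14 to 0.70), Gstt3 (-0.40 to 0.074), Gstp1 (-0.031 to 0.50) and Mgst3 (-0.39 to 0.61). Other members turned as well, such as Ugt2b36 (-0.028 with all arrays) and Ugt2a3 (-0.47 with all arrays). Their mean in the large pools was 6.50 and 5.16. Without the small pool of mouse 2, this stands against 5.64 and 4.39 in the small pool of mouse 1, where Ugt2a3 was not detected. The blocked fit has 1 residual degree of freedom, so its calls rest on spread pooled over probes. With 2 arrays a size, precision is limited by their number; 27 member probes were not above background on any array.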
